A study of Mus musculus with 6 samples.

Results

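The CREB3 family and the related ATF6 and CREB factors were read from 8 genes: Creb3, Creb3l1, Creb3l2, Atf6, Atf6b, Creb1, Crem and Atf1. A probe set, a group of short probes for the same transcript, was taken where the annotation of the array named exactly 1 gene and that gene was one of the 8. This gave 21 of 45037 probe sets, from 7 of the 8 genes and of 18193 genes named on the array. They were 4 probe sets of Creb3, 1 of Creb3l1, 2 of Creb3l2, 3 of Atf6, 1 of Atf6b, 6 of Creb1 and 4 of Crem. Atf1 had no probe set of its own, since the 1 probe set that carries its symbol carries another symbol too, and no value is given for it. In all, 34945 probe sets were named with 1 gene.

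The study asked which mRNAs change in level or stability when mouse embryonic fibroblasts (MEFs) lose CNOT3, a subunit of the CCR4-NOT deadenylase that shortens poly(A) tails. Both kinds of culture came from MEFs with floxed Cnot3 alleles. CNOT3-depleted MEFs (CNOT3KD) were infected with a retrovirus for Cre, control MEFs with a mock retrovirus, and infected cells of both kinds were selected in puromycin for 2 days. RNA was taken at 0 h and after treatment for 6 and 12 h with the transcription blocker actinomycin D (Act. D), and each of these 6 conditions had 1 array. In the labels the control genotype is wild type. With 1 array per condition there is no replicate error, so differences below are described by size and no test was made. A culture is a population of infected cells, in which fewer expressing cells and less mRNA per cell cannot be told apart.

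CREB3, CREB3L1, CREB3L2, ATF6 and ATF6B are transcription factors anchored in the membrane of the endoplasmic reticulum (ER). Under stress or secretory load they move to the Golgi, where site-1 and site-2 proteases release the part that enters the nucleus. CREB1, CREM and ATF1 have the same basic leucine zipper type of DNA-binding domain but lie in the nucleus, where kinases such as protein kinase A activate them on cAMP response elements (CRE). The mRNA level is therefore only one of several layers at which these factors are controlled.

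Signals are the deposited MAS5 values, on a linear scale, and signals of different probe sets are not compared in level. Each array had been scaled to nearly the same trimmed mean, 494 to 497. The signal left is given as a percentage of 0 h in the culture concerned, and under this scaling it is relative to the other mRNAs on the array and can exceed 100%. Stabilization is log2 of the fraction left in CNOT3KD over that in control, as the mean of the 6 h and 12 h values. The stabilized call asked for a mean 0 h signal (log2) no lower than the median probe set, a CNOT3KD ratio of 6 h to 0 h from 0.5 to 2, and a fraction left that reached 2 times the control value at 6 h and again at 12 h. Signals under the 25th percentile of their array, 13.6 to 19.8, were taken as near background.

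Cnot3 itself was 1.82-fold lower in CNOT3-depleted MEFs at 0 h at its brightest probe set, with signals of 436 and 239.6, and lower at both later times. The other Cnot3 probe set had 204 and 227 and so was not lower at 0 h. At 6 and 12 h it was lower, with 201 and 279 in control and 90.7 and 92.6 in CNOT3KD. Whether it lies in the deleted exons was not analysed here. All 10 fibroblast markers were at or above the median, with a summed signal from 130016 to 213368 in control and from 136455 to 146598 in CNOT3KD. Of the markers of other cells, the summed signals at 0 h in control and CNOT3KD were 2045 and 2966 for 8 leukocyte genes, 701 and 1269.5 for 6 epithelial genes, 3819 and 6653 for 5 muscle genes, 1810.2 and 1825 for 5 neural genes, and 223 and 227 for 6 endothelial genes. Over the 3 times they ran from 2045 to 4283 and 2966 to 4133 for leukocyte, 508 to 701 and 1269.5 to 1505 for epithelial, 3819 to 5543 and 6653 to 7382 for muscle, 1810.2 to 1936 and 1591 to 1928 for neural, and 223 to 297 and 227 to 279 for endothelial genes. Such a sum mixes probe sets of different brightness and can rest on a single bright gene. At 0 h in control and CNOT3KD, the muscle gene Acta1 had 3337 and 6105, Des 204 and 269 and Tnnt2 235 and 216. Among the epithelial genes, Krt18 had 419 and 862, Krt8 51.2 and 133, Epcam 145 and 154 and Krt5 67.9 and 70.5. The endothelial markers Tie1 and Vwf were near background on all 6 arrays. Of the markers at or above the median, those more than 1.5-fold higher in CNOT3KD at 0 h were Cd68, Krt18, Krt8, Acta1 and Tubb3, and those more than 1.5-fold lower were Sox2 and Nes. The control signal of Krt8 at 0 h lay under the median of 72.9, so Krt8 passed this filter only through its CNOT3KD signal. Among dimmer markers above background on all 6 arrays, Tek and Myog were past 1.5-fold higher and Cdh5 past 1.5-fold lower. The part of such cells in the results below was not tested.

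Of the 21 probe sets, 18 passed the median signal at 0 h, and they moved in different ways. Before Act. D, 4 of the 18 (22.2%) exceeded the control signal by over 1.5-fold in CNOT3KD, beside 9.46% of all 22519 probe sets at or above the median. These were 3 probe sets of Creb3 and 1 of Creb1. A further 3 (16.7%) were lower by over 1.5-fold, 2 of Creb1 and 1 of Crem, beside 11.7% of all. Stabilized were 5 (27.8%), 2 of Creb3 and 3 of Creb1, beside 8.89% of all. With the roles of the cultures exchanged, 0 of the 18 met the rule, beside 0.857% of all. The 5 stabilized probe sets come from 2 genes, and probe sets of the same gene are not independent measures. The Creb1 probe set counted as higher, 1421582_a_at, had 70.8 in control at 0 h, under the median of 72.9. It passed the filter only through its CNOT3KD signal of 134, and it is also among the 5 stabilized. Its place in these counts thus depends in part on its being higher in CNOT3KD.

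The split of higher and lower calls moved with the scaling of the arrays. Among the members it was 4 higher and 3 lower (57.1% higher) with the deposited scaling and 4 higher and 1 lower (80% higher) when arrays were divided by their ribosomal protein signals. Over all probe sets at or above the median the corresponding shares were 44.8% and 69.7%, and 59.0% with arrays divided by their medians. Division by the ribosomal protein signals shifted the median of these probe sets upward by 0.16 in the log2 fold at 0 h and by 0.49 in stabilization.

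The fraction left was higher in CNOT3KD at both times for 12 of the 18 probe sets (66.7%), beside 41.1% of all. It was lower at both times for 3, and the share of all probe sets that were lower at both times was not counted. Median stabilization was 0.70 over the 18 and 0.04 over all probe sets at or above the median. The median signal left after 12 h in control MEFs was 29.9% for the members and 73.9% for all. In CNOT3-depleted MEFs it was 94.7% and 91.4%. The medians of the 18 and of all probe sets thus lay far apart in control MEFs and close together in CNOT3-depleted MEFs. The 18 include 4 probe sets of Creb3 and 5 of Creb1, which are not independent. Among them 1421582_a_at of Creb1 passed the median only through CNOT3KD, with later control signals near background. At the brightest probe sets, 23.0% was left after 12 h in control for Creb1, 29.5% for Creb3l1, 30.3% for Creb3 and 43.6% for Crem. It was 78.8% for Creb3l2, 125% for Atf6 and 232% for Atf6b, beside a median of 72.8% over all genes. Every CNOT3KD array was above every control array at 5 of the 18 (27.8%), 3 of Creb3, 1 of Creb1 and 1 of Crem, beside 14.9% of all. The Creb1 probe set is again 1421582_a_at, which passed the median only through its CNOT3KD signal. Every CNOT3KD array was below every control array at 2 (11.1%), 1 of Atf6 and 1 of Atf6b, beside 10.6% of all.

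**Figure D1:**
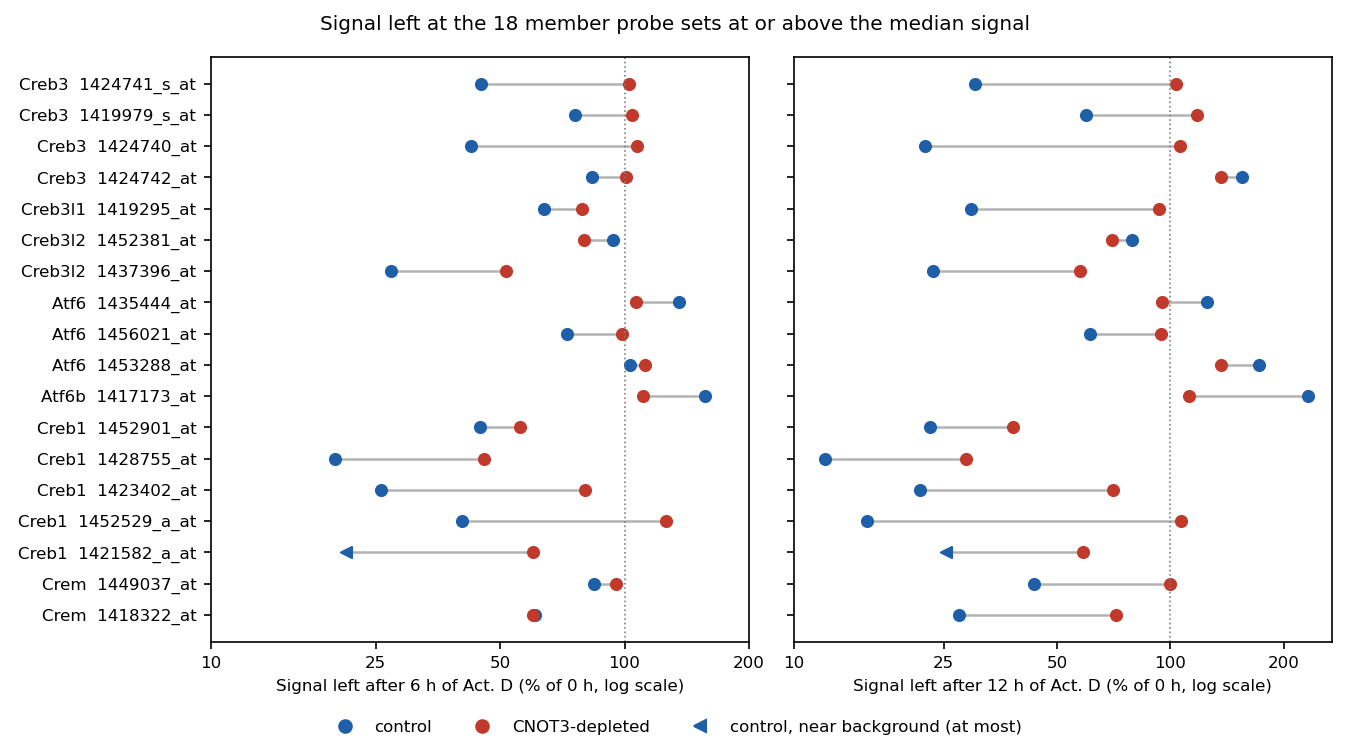
Signal left after 6 h (left panel) and 12 h (right panel) of Act. D at the 18 member probe sets past the median signal, as a percentage of 0 h on a log axis, with blue points for control, red points for CNOT3-depleted MEFs and triangles for upper bounds where the control signal was near background. At 12 h, 13 of the 18 red points lie to the right of the blue ones, and those of 1424742_at, 1452381_at, 1435444_at, 1453288_at and 1417173_at do not. The share over all probe sets at 12 h was not counted.

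Read once per gene, at its brightest probe set by mean log2 signal over the 6 arrays, the 7 genes gave 1 that was more than 1.5-fold higher at 0 h (Creb3), beside 12.4% of 11062 genes. Creb1 was the 1 gene more than 1.5-fold lower, beside 6.77% of all. This call was lost with arrays divided by their medians, at a log2 fold of -0.53, with ribosomal protein scaling, at -0.46, and as the median over the Creb1 probe sets, at -0.05. Creb3 was the 1 gene stabilized, beside 10.6% of all. The study itself picked Creb3 from these arrays to follow by qPCR, so its values here are not independent evidence of a change.

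**Figure D2:**
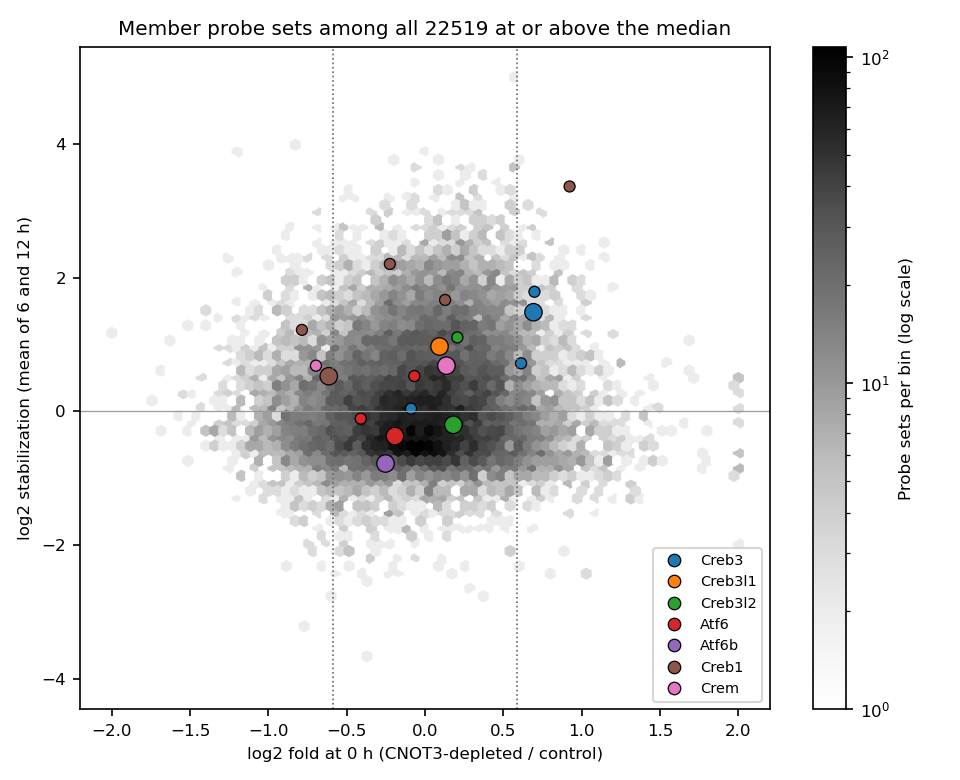
Log2 fold of CNOT3KD over control at 0 h (x axis) against log2 stabilization (y axis) for the 18 member probe sets, coloured by gene, over all probe sets at or above the median in grey (darker for more probe sets, values past the axes drawn at the edge), with dotted lines at 1.5-fold and larger points for the brightest probe set of each gene. The brightest Creb3 probe set lies up and to the right, Atf6b lowest at -0.77, and the probe sets of Creb1 spread from 0.53 to 3.36 in stabilization. The 3.36 rests on control signals near background.

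Creb3 encodes the founding member of the family, also called Luman, an ER-bound factor known for roles in secretion and cell migration. Its promoter is printed because Creb3 was both higher and stabilized, with that of Creb3l2, which moved less, and that of Creb1, which was lower at 0 h. The sequences are RefSeq, build GRCm38.p6, and hold only the bases before the outermost annotated start: chr4:43562408-43562657, plus strand, for Creb3, chr6:37442277-37442398, minus strand, for Creb3l2, and chr1:64532554-64532793, plus strand, for Creb1. Capitals mark, on either strand, the core TGACG of the CRE, the core CCACG of the ER stress element bound by ATF6, and the CCAAT box.
Creb3: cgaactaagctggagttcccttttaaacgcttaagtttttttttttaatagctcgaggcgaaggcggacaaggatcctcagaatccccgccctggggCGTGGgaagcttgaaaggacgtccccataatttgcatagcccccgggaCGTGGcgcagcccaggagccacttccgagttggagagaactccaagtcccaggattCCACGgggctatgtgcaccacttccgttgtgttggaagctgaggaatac
Creb3l2: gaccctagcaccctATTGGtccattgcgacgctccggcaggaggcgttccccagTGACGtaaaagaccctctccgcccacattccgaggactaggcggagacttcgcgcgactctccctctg
Creb1: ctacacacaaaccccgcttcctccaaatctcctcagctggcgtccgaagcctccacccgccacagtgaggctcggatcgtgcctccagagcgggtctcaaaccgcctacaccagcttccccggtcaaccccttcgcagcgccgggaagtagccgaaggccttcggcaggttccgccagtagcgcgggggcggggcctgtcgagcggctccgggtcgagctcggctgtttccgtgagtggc
Matches were sought on both strands in windows of 250 bases before and 50 after each start, and the printed stretches are parts of these. In its window Creb3 held 3 matches to CCACG, which 32.8% of 32851 promoters hold at least once. The window of Creb3l2 held 1 match to TGACG, found in 20.8% of promoters, and 2 to CCAAT, found in 37.4%. No match was found in the Creb1 window. The palindromic CRE TGACGTCA, which contains TGACG, was in 1.79% of promoters and in 0 of the 5 member promoters listed, those of Creb3, Creb3l2, Creb1, Atf1 and Atf6b. A match describes letters and is not a shown binding site, and these arrays measure mRNA levels, not binding.

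At its brightest probe set, 1424741_s_at, Creb3 had signals of 2657, 1194 and 805 at 0, 6 and 12 h in control MEFs. In CNOT3-depleted MEFs the signals were 4292, 4407 and 4454. Every CNOT3KD array was above every control array. The difference was 1.62-fold at 0 h, 3.69-fold at 6 h and 5.53-fold at 12 h. In control MEFs 44.9% and 30.3% of the signal was left after 6 and 12 h, and in CNOT3-depleted MEFs 103% and 104% was left. The stabilization of 1.48 was reached or passed by 10.6% of all probe sets at or above the median.

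A second Creb3 probe set, 1424740_at, had 1314, 560.3 and 293 in control and 2132, 2289.9 and 2259 in CNOT3KD. It was 1.62-fold higher at 0 h and 7.70-fold higher at 12 h, with a stabilization of 1.79. Probe set 1419979_s_at had 2131, 1614 and 1272 in control and 3259, 3389.6 and 3845 in CNOT3KD. It was 1.53-fold higher at 0 h, with 1.37 and 1.98 times as much left at 6 and 12 h, so it missed the stabilized call. These 3 probe sets all had more signal in every CNOT3KD array than in any control array. The fourth, 1424742_at, was dim and did not show the pattern, with 97.4, 81.3 and 151 in control and 91.5, 92.1 and 125 in CNOT3KD. Where these probe sets lie on the transcripts was not analysed here. With quantile normalization both stabilized Creb3 probe sets lost the call, although stabilization at the brightest stayed at 1.10 or more under each alternative run.

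**Figure D3:**
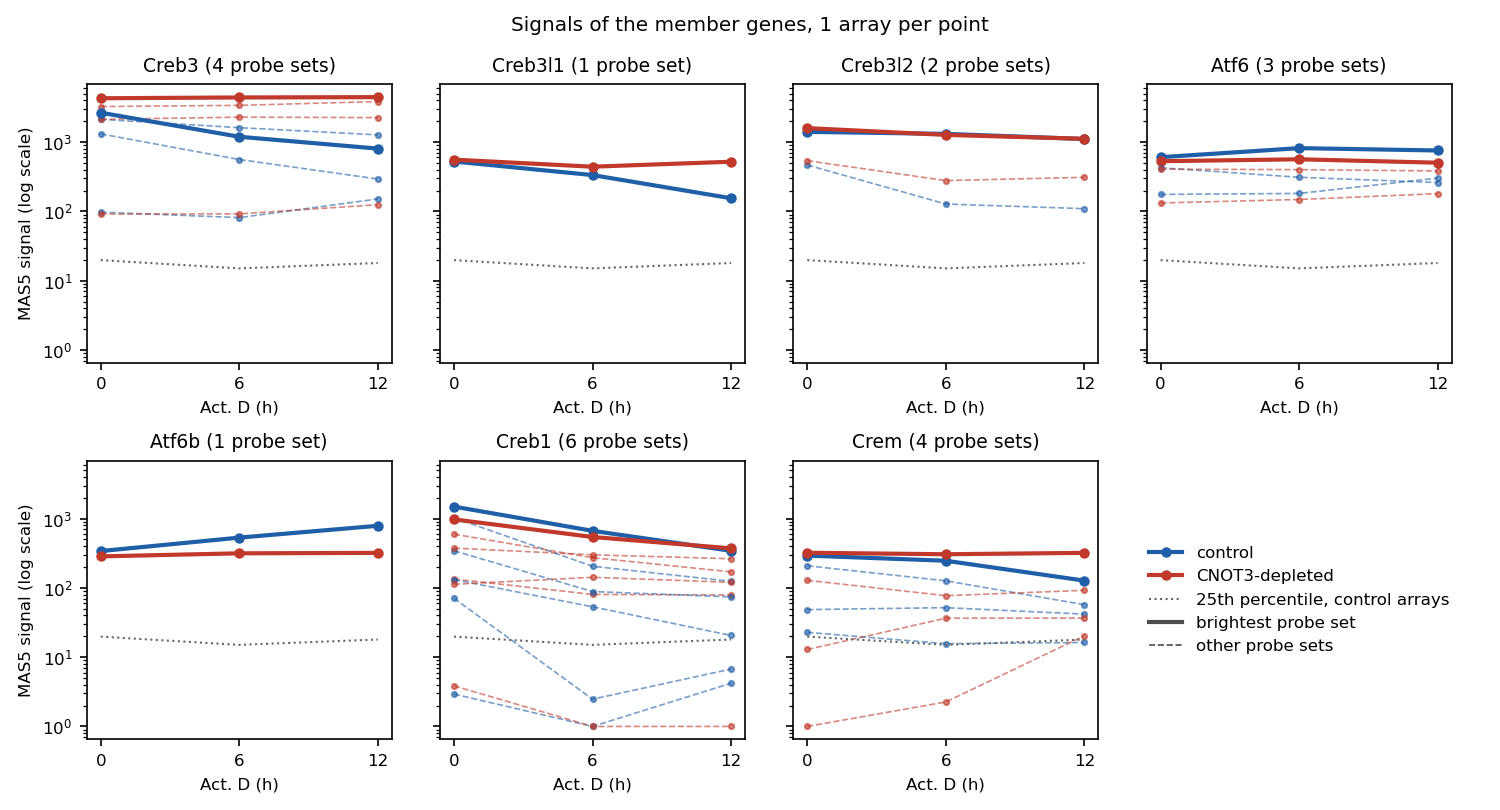
Signal (log axis) at 0, 6 and 12 h of Act. D for the 21 member probe sets, 1 panel per gene, with each point 1 array, blue for control, red for CNOT3-depleted MEFs, thick lines for the brightest probe set of a gene, dashed lines for the others and a dotted line for the 25th percentile of the control arrays. The brightest Creb3 probe set went from 2657 to 805 in control and from 4292 to 4454 in CNOT3-depleted MEFs.

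Creb3l1, also called OASIS, is known for collagen secretion in bone and fibroblasts, and it had 1 probe set. Control MEFs gave signals of 524, 334 and 155, and CNOT3-depleted MEFs gave 558, 442 and 521. The cultures were alike at 0 h (1.06-fold) and stood 3.37-fold apart at 12 h. The control array at 12 h was the lowest of the 6. The signal left was 63.8% and 29.5% in control and 79.1% and 93.3% in CNOT3KD, which is 1.24 and 3.16 times as much. The stabilized call was therefore not met at 6 h.

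Creb3l2, also called BBF2H7, is known for the secretion of cartilage matrix, and its 2 probe sets did not move alike. The brightest, 1452381_at, had 1404, 1314 and 1107 in control and 1592, 1269.8 and 1116 in CNOT3KD. The cultures stayed within 1.13-fold of each other at all 3 times. Probe set 1437396_at had 467, 128 and 109 in control and 539, 278 and 310.1 in CNOT3KD. Its signal left was 27.3% and 23.4% in control and 51.6% and 57.5% in CNOT3KD, or 1.89 and 2.46 times as much. Stabilization was -0.20 at the first and 1.11 at the second, and with ribosomal protein scaling the first became 0.29.

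Atf6, the sensor that is cleaved under ER stress and switches on chaperone genes, was slightly lower in CNOT3-depleted MEFs at 0 h. Its brightest probe set, 1435444_at, had 605, 818 and 757 in control and 529.7, 565 and 504 in CNOT3KD, 1.14-fold lower at 0 h and 1.5-fold lower at 12 h. All 3 CNOT3KD signals were below all 3 control signals as deposited. With ribosomal protein scaling the log2 fold turned from -0.53 to 0.02 at 6 h and from -0.59 to 0.16 at 12 h. Its stabilization was -0.37, and 70.6% of all probe sets at or above the median had a value at least as high. Probe set 1456021_at had 427, 310.3 and 261 in control and 407, 400.1 and 383 in CNOT3KD, with a stabilization of 0.53. Probe set 1453288_at had 176, 182 and 302 in control and 132, 148 and 180.2 in CNOT3KD, with a stabilization of -0.11. The 3 probe sets thus differed in direction. With ribosomal protein scaling the stabilization of 1435444_at became 0.12 and that of 1453288_at became 0.38, and the log2 fold at 0 h of 1456021_at went from -0.07 to 0.09.

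Atf6b, a relative of ATF6 with weaker activity, had the lowest stabilization among the 18 probe sets. Its signal was 339.7, 531 and 787 in control and 285, 315 and 319.9 in CNOT3KD. The control signal reached 232% of its 0 h level after 12 h, while the CNOT3KD signal reached 112%. The cultures stood 1.19-fold apart at 0 h and 2.46-fold apart at 12 h, with CNOT3KD lower each time. The stabilization of -0.77 stayed below 0 under each alternative run, from -1.09 to -0.28, and 90.4% of all probe sets at or above the median had a value at least as high.

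Creb1, the widely expressed activator of cAMP and growth factor responses, was lower at 0 h at its bright probe sets and higher at a dim one. The brightest, 1452901_at, had 1490.3, 666 and 343 in control and 973, 543 and 372 in CNOT3KD, 1.53-fold lower at 0 h. Its signal left was 44.7% and 23.0% in control and 55.8% and 38.2% in CNOT3KD. The mRNA read here thus decreased in both cultures, unlike Creb3. Probe set 1428755_at had 1028, 205 and 124 in control and 596, 273 and 170.3 in CNOT3KD, 1.72-fold lower at 0 h. It had 2.29 and 2.36 times as much left in CNOT3KD, but its CNOT3KD ratio of 6 h to 0 h was under 0.5, so the stabilized call was not met. With arrays divided by their medians it was met.

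The 3 stabilized Creb1 probe sets were dimmer. Probe set 1423402_at had 343, 88.6 and 74.1 in control and 375, 300.2 and 263 in CNOT3KD. It had 3.10 and 3.25 times as much left in CNOT3KD at 6 and 12 h. Probe set 1452529_a_at had 132, 53.4 and 20.6 in control and 113, 142 and 120.2 in CNOT3KD, 1.17-fold lower at 0 h and 5.85-fold higher at 12 h. Both therefore started near the control level and parted from it under Act. D. Probe set 1421582_a_at had 70.8, 2.47 and 6.73 in control, the last 2 near background, and 134, 80.4 and 78.9 in CNOT3KD, 1.90-fold higher at 0 h. Against the background level it had at least 2.82 and 2.32 times as much left in CNOT3KD. The sixth Creb1 probe set, 1421583_at, was near background on all 6 arrays. Across the 5 others, stabilization ran from 0.53 to 3.36 and the log2 fold at 0 h from -0.79 to 0.92. Creb1 thus has no single value on this array. The 3.36, at 1421582_a_at, rests on control signals near background. With signals under the 25th percentile set to it, the value was 1.35. The next highest was 2.21, at 1452529_a_at.

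Crem, which gives rise to activators and to repressors such as ICER, was read by 4 probe sets, 2 of them at or above the median. The brightest, 1449037_at, had 292, 246 and 127 in control and 321, 306 and 320.2 in CNOT3KD. The cultures differed by 1.10-fold at 0 h and 2.52-fold at 12 h. Probe set 1418322_at had 208, 126 and 57.2 in control and 129, 77.2 and 92.2 in CNOT3KD, 1.62-fold lower at 0 h. With ribosomal protein scaling this was a log2 fold of -0.54, short of 1.5-fold. Its signal left was nearly the same in both cultures at 6 h, at 60.7% and 60.02%, and 27.4% and 71.7% at 12 h. Stabilization was 0.68 at the first and 0.69 at the second, and both had more left in CNOT3KD at 12 h, 2.29 and 2.61 times as much, than at 6 h, 1.13 and 0.99 times. Probe set 1430847_a_at had 48.6, 51.8 and 41.8 in control and 12.9, 36.5 and 36.6 in CNOT3KD, at least 2.58-fold lower at 0 h, where the CNOT3KD signal was near background. Probe set 1430598_at was near background on 3 arrays, and its highest signal was 22.8.

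The order of the genes in stabilization at their brightest probe sets was Creb3 (1.48), Creb3l1 (0.99), Crem (0.68), Creb1 (0.53), Creb3l2 (-0.20), Atf6 (-0.37) and Atf6b (-0.77). With 1 array per condition it cannot be said which neighbours in this order differ. The log2 fold at 0 h was 0.69 for Creb3, 0.18 for Creb3l2, 0.14 for Crem, 0.09 for Creb3l1, -0.19 for Atf6, -0.25 for Atf6b and -0.62 for Creb1. As the median over the probe sets of each gene, stabilization was 1.44 for Creb1, 1.12 for Crem, 1.10 for Creb3 and 0.99 for Creb3l1. The order thus depends on which probe sets are read. These medians take in dim probe sets with signals near background, such as 1430847_a_at and 1430598_at of Crem and 1421583_at of Creb1.

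Of 11393 genes compared over the 6 arrays, those whose log2 signals followed Creb3 most closely were Gnb1l, Cyria, Eps15l1, Ift81 and Avpi1, with Pearson r from 0.998 to 0.999. Gnb1l had 203, 95.4 and 62.6 in control and 301, 296 and 317 in CNOT3KD. Each gene was read only at its brightest probe set and with the deposited scaling. Among the members, r with Creb3 was 0.89 for Crem, 0.88 for Creb3l1, 0.36 for Creb3l2, 0.26 for Creb1, -0.94 for Atf6 and -0.97 for Atf6b. The r of other probe sets was not computed. Of these, Atf6 1456021_at had 61.2% left at 12 h in control and 94.3% in CNOT3KD. The 6 arrays are 1 per condition along an Act. D time course, and the labels do not say whether they share cultures. These values therefore describe likeness of pattern.

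Counts in the pathway lists from here on are to be read beside those of all 11062 genes at or above the median. Of all these genes 12.4% were higher, 6.77% lower and 10.6% stabilized. Of 5 other ER-bound factors, 4 passed the median signal, and 0 of these were past 1.5-fold at 0 h or stabilized. With arrays divided by their medians or by their ribosomal protein signals, or with quantile normalization, 1 was higher. The fifth, Creb3l4, which belongs to the CREB3 family, was dimmer, with 36.8, 11.4 and 64.7 in control, the second near background, and 116, 127 and 169 in CNOT3KD, 3.17-fold higher at 0 h. It was named after its values were seen. Of 5 genes for the processing of ER-bound factors, Insig1, which retains SREBP precursors in the ER, was the 1 gene higher. It had 1412, 936.5 and 659 in control and 2277, 2712 and 3071 in CNOT3KD. The genes of the proteases were a little lower at 0 h, with 2511 and 2045 for Mbtps1 (site-1 protease) and 1576 and 1263 for Mbtps2 (site-2 protease).

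The coactivators and partners of CREB had 2 of 10 genes higher, beside 12.4% of all genes, and 0 lower, beside 6.77%. The 2 were Crtc2 and Crtc3, both cAMP-regulated coactivators. Both lay just past the limit, at 1.505-fold for each, and with 16 added to each signal both calls were lost. Crtc3 also met the stabilized rule, with 504, 108 and 113 in control and 759, 512 and 360.2 in CNOT3KD. With 16 added it had 1.95 times as much left at 12 h, and with quantile normalization 1.77 times, and the call was lost. Crebbp, the CREB-binding acetyltransferase, was chosen after its values were seen, as one of several short-lived mRNAs. It had 1680.2, 172 and 104 in control and 1916, 693 and 443 in CNOT3KD, with a stabilization of 1.86, but it decayed in both cultures and so missed the call.

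Of 11 measured genes for CREB kinases and subunits of protein kinase A, 10 were at or above the median. Prkar1b, a regulatory subunit, was 1.77-fold higher, Prkar2b, another regulatory subunit, 2.06-fold lower, and Rps6ka3, the kinase RSK2, 1.75-fold lower. Rps6ka5, the CREB kinase MSK1, was stabilized, with 116, 52.2 and 5.55 in control, the last near background, and 109, 121 and 92.3 in CNOT3KD. Of 6 other ATF and CREB factors, Atf3, a stress-induced factor, was 1.74-fold higher with 75.7 and 132 at 0 h, and 0 were lower. At 6 and 12 h Atf3 had 152 and 138 in control and 116 and 105 in CNOT3KD. With 16 added to each signal it met the stabilized rule with the cultures exchanged. Creb5 met the stabilized rule, with 99.0, 9.30 and 2.83 in control and 112, 62.2 and 32.2 in CNOT3KD, but both later control signals were near background. With signals under the 25th percentile set to it, 1.59 times as much was left in CNOT3KD at 12 h and the call was lost.

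Of 14 genes known as CREB targets, 13 were at or above the median. Of these, 1 was higher, 1 lower and 1 stabilized, beside 12.4%, 6.77% and 10.6% of all genes. Their median stabilization was 0.60, beside 0.13 over all genes. Gem, a small GTP-binding protein, was 2.06-fold higher and met the stabilized rule, with 188, 61.2 and 97.5 in control and 388, 365 and 419 in CNOT3KD. The stabilized call was lost with 16 added to each signal, at 1.94 times as much left at 12 h, and with quantile normalization, at 1.81 times. Nr4a2, a nuclear receptor, was 1.72-fold lower. Per1, a clock gene, met the stabilized rule with the cultures exchanged, with 50.9% and 39.2% left in control and 24.1% and 17.1% in CNOT3KD, and did not meet it with 16 added or with ribosomal protein scaling. The exchanged rule was met by 0.857% of all probe sets at or above the median, and its share over genes was not counted.

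Of 18 genes known as ATF6 targets, all at or above the median, 3 were lower at 0 h and 0 were higher. Over all genes, 6.77% were lower and 12.4% higher. Creld2 was 1.66-fold lower, Derl3, which acts in ER-associated degradation, 1.65-fold lower, and Sdf2l1, an ER chaperone partner, 1.52-fold lower. Herpud1, another gene of ER-associated degradation, met the stabilized rule, with 1483, 613 and 388 in control and 1725, 1554 and 1821 in CNOT3KD. With quantile normalization it had 1.72 times as much left at 6 h and the call was lost. The log2 fold at 0 h was below 0 for 17 of the 18, with a median of -0.23 beside 0.08 over all genes at or above the median. The share of all genes below 0 was not counted. With ribosomal protein scaling 10 were below 0, with a median of -0.07, and 0 were past 1.5-fold. Sdf2l1 also lost its call with arrays divided by their medians, at a log2 fold of -0.51, and Derl3 with quantile normalization, at -0.58.

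Of 13 genes of the secretory pathway known as targets of the CREB3 family, 0 were past 1.5-fold at 0 h in either direction and 0 were stabilized. Over all genes, 12.4% were higher, 6.77% lower and 10.6% stabilized. The median log2 fold at 0 h of the 13 was 0.16, beside 0.08 over all genes. With ribosomal protein scaling 2 were higher and 2 stabilized. Sec24d, a subunit of the COPII coat, was chosen after its values were seen, with 3861, 2221 and 790.5 in control and 4303, 4461 and 4549.8 in CNOT3KD. It had 57.5% and 20.5% left in control and 104% and 106% in CNOT3KD, below 2 times as much at 6 h.

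**Figure D4:**
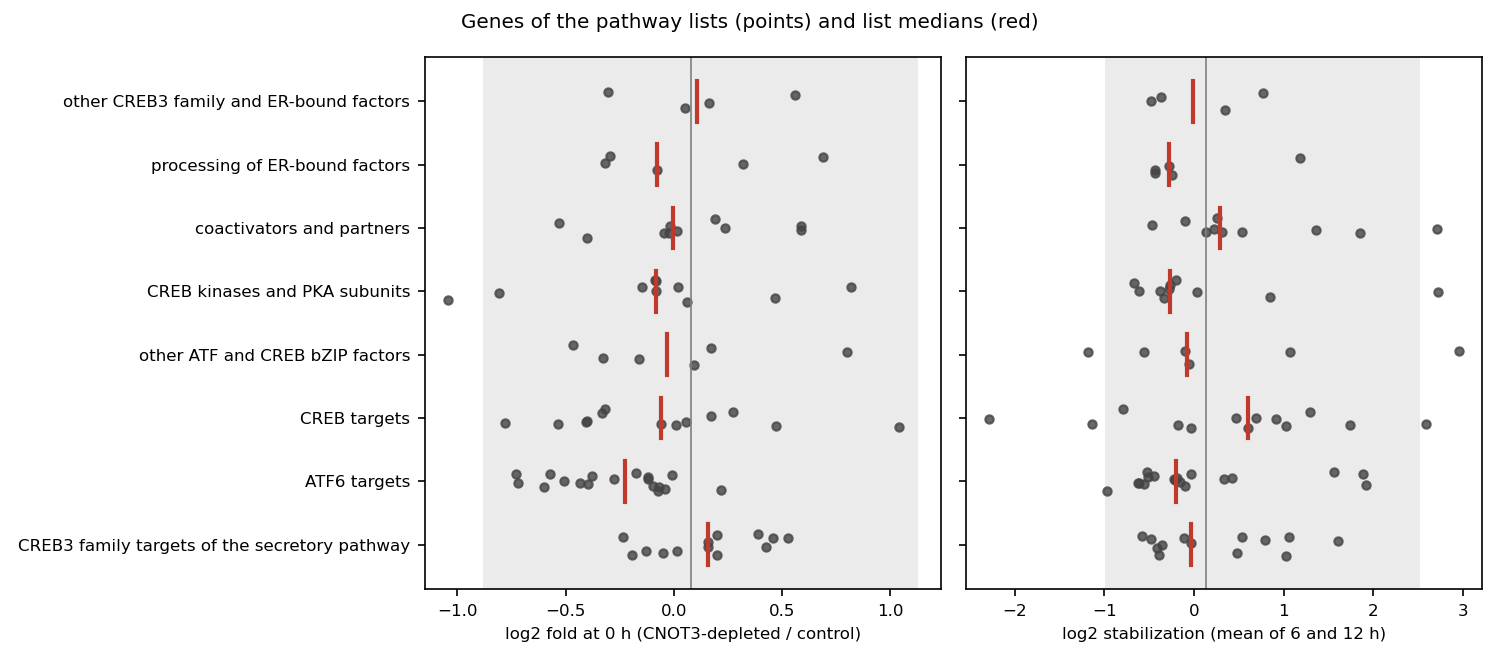
Log2 fold at 0 h and log2 stabilization of the genes at or above the median in each of the 8 pathway lists, 1 point per gene at its brightest probe set, with list medians in red and, for 11062 genes, the median as a grey line and the range from the 2.5th to the 97.5th percentile as a grey band. The points of the ATF6 targets lie below 0 in the fold at 0 h for 17 of 18 genes, and for 10 with ribosomal protein scaling. The share of all genes below 0 was not counted.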

How the data were processed

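Total RNA of the 6 samples was labelled and hybridized to Affymetrix mouse arrays. The deposited intensity values are MAS5 signals that the authors computed for each probe set and scaled to nearly equal trimmed means. MAS5 is named in the submitters' processing notes, and its version is not given in the labels or methods. The platform annotation gave 1 gene for 34945, several for 932 and none for 9160. A floor of 1 was applied and the arrays were not rescaled. The brightest probe set, by mean log2 signal over the arrays, stood for a gene. Limits were 1.5-fold at 0 h and 2 times the fraction left.

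Named are the 8 genes, in each of 8 pathway lists up to 4 past a limit, and the 5 genes most like Creb3. Other genes were added as examples once values were known. The members and lists were chosen with earlier results of these data known. Alternatives were other scalings, treatments of low signals, probe sets and limits. With 1 array per condition, the number of arrays limits the precision and no test was made. The counting rules were tested on simulated data. Python 3.11.15, numpy 2.4.6 and pandas 2.3.3 were used.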

Additional observations from a re-analysis of the deposited data

Results flagged for a closer look

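At 4 of the 17 member probe sets above background on all 6 arrays (23.5%), the signal was lower than at 0 h at both times in control MEFs and higher than at 0 h at both times in CNOT3-depleted MEFs. Counted in either direction, opposite moves were seen at these same 4 of the 17 members and at 3363 of 25187 of all probe sets (13.4%). The share with the direction of the members alone was not counted. The 4 member probe sets were 1419979_s_at, 1424740_at and 1424741_s_at of Creb3, with a log2 stabilization of 0.72, 1.79 and 1.48, and 1452529_a_at of Creb1, with 2.21. The difference was not tested, since each condition had 1 array.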

How the results depend on the processing

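No paired analysis was possible because the labels give no replicates to pair, and a fit with the 3 times as pairs would average over the time course compared. Under the alternatives, 106 of the main values and counts stayed within 1.5-fold of the reported value and 8 did not. Within that range the log2 fold at 0 h of Creb1 went from -0.62 to -0.05, and stabilization turned from -0.37 to 0.12 for Atf6 and from -0.20 to 0.29 for Creb3l2. With a limit of 2-fold at 0 h, 0 member probe sets were higher and 0 lower, in place of 4 and 3. The count lower was 1 with ribosomal protein scaling and 5 with no filter on low signals. Quantile normalization gave 3 stabilized, in place of 5, the 3 of Creb1. Where a gene was given the median of its probe sets, the log2 fold at 0 h of Crem was -1.31, and stabilization was 1.44 for Creb1 and 0.45 for Creb3l2. The Crem value rests in part on probe sets whose CNOT3KD signal at 0 h was near background. The log2 fold at 12 h of Atf6 was 0.16 with ribosomal protein scaling, in place of -0.59. Over all probe sets, the counts were 581 to 8393 higher (2130 as reported), 608 to 9969 lower (2626), 1532 to 3673 stabilized (2003) and 35 to 1704 with the cultures exchanged (193). The causes were not tested. Signals near background set only bounds.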
